A study of Mus musculus with 39 samples.

Results

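Immune checkpoint ligands and receptors are the surface proteins through which antigen presenting cells, tumour cells and T cells restrain or sustain T cell activity. Their transcripts were examined in AB1-HA tumours, which grow from a mouse mesothelioma cell line that carries influenza haemagglutinin. The members are the genes Cd274, Pdcd1lg2, Pdcd1, Ctla4, Cd80, Cd86, Lag3, Havcr2, Tigit and Icos, taken as the rows of the gene count table that bear these symbols. Of the 10 genes listed, 8 were found among the 39676 genes of the table, whereas Cd80 and Tigit were not analysed here. RNA was sequenced from 39 whole subcutaneous tumours of female and male BALB/c mice (8 to 10 weeks), resected on day 9. Per the labels, 10 tumours came from mice given the PBS vehicle, 9 from mice given tretinoin (all-trans retinoic acid, 5 doses of 5 mg/kg from day 4) and 10 from mice given immune checkpoint therapy (ICT, 100 µg anti-CTLA-4 and 100 µg anti-PD-L1 from day 7). The study's text and legends differ from the labels in the number and size of the tretinoin doses, and the labels were followed. The other 10 received tretinoin+ICT, and their labels mark 6 as responders and 4 as non-responders. Response was read from the second tumour of the same mouse, which was left in place, so the RNA comes from a tumour whose own fate was not observed.

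PD-L1 (encoded by Cd274) and PD-L2 (Pdcd1lg2) bind the receptor PD-1 (Pdcd1) and dampen T cell receptor signalling. CD86 binds CD28 to costimulate T cells, and CTLA-4 (Ctla4), which is induced on activated T cells and abundant on regulatory T cells, competes with CD28 for it. LAG-3 (Lag3) and TIM-3 (Havcr2) are further inhibitory receptors, TIM-3 being present on myeloid cells as well as T cells, and ICOS (Icos) is a costimulatory relative of CD28. Interferon gamma is a known inducer of Cd274 and Pdcd1lg2. The ICT antibodies bind the proteins CTLA-4 and PD-L1, and the values below are levels of the transcripts only.

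Cd274 (ENSMUSG00000016496.7, chromosome 19, 29367455 to 29388095, plus strand) and Pdcd1lg2 (ENSMUSG00000016498.9, chromosome 19, 29410919 to 29471161, plus strand) lie 22823 bp apart. Ctla4 (ENSMUSG00000026011.13, chromosome 1, 60887000 to 60915832) and Icos (ENSMUSG00000026009.14, chromosome 1, 60977927 to 61000320), both on the plus strand, lie 62094 bp apart. Pdcd1 (ENSMUSG00000026285.7, chromosome 1, 94038305 to 94052553, minus), Cd86 (ENSMUSG00000022901.13, chromosome 16, 36603869 to 36666081, minus), Lag3 (ENSMUSG00000030124.2, chromosome 6, 124904361 to 124911705, minus) and Havcr2 (ENSMUSG00000020399.14, chromosome 11, 46454935 to 46481255, plus) are single. These positions are those of GENCODE M21 on GRCm38, a build that may differ from the one the counts were made on. An antisense gene, AC119228.1, shares 511 bp of exon with Cd274, and how strand was handled in the counting is not given in the sources used here, so reads of this stretch cannot be told apart.

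The promoters of the neighbouring pair Cd274 and Pdcd1lg2, whose transcripts moved together across the treatments, and that of Ctla4, whose transcript moved the other way, are printed for comparison. Each is the 250 bp before the RefSeq start of the gene (GRCm38.p6, plus strand, 5′ to 3′), at chr19:29367188-29367437, chr19:29410669-29410918 and chr1:60908775-60909024, and it is the C57BL/6J reference and not the BALB/c sequence. Capitals mark motif matches.
Cd274: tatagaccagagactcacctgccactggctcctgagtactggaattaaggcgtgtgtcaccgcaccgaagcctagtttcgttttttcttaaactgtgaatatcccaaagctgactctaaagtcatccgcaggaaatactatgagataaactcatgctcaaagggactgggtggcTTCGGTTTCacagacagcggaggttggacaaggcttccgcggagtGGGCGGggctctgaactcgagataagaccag
Pdcd1lg2: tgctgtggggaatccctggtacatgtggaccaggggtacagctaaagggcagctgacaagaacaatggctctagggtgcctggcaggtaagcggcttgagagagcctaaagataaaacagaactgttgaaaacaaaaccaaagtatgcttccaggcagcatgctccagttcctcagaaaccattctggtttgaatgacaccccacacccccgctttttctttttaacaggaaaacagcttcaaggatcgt
Ctla4: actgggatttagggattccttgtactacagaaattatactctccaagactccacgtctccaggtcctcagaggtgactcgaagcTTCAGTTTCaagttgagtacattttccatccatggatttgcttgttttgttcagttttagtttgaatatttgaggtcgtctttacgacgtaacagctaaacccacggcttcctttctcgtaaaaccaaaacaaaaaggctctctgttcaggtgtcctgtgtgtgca
Both strands were searched for an interferon-gamma activated site (TTCNNNGAA), a short form of the interferon-stimulated response element bound by IRF proteins (GAAANNGAA), the response element core, which is the same letters followed by a further A and so overlaps it, a DR5 retinoic acid response element (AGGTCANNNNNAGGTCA) and a GC box (GGGCGG). The last motif and the shorter IRF form were added after the promoters had been read. Cd274 held the shorter IRF form on the minus strand at -76 to -68 (TTCGGTTTC as printed) and a GC box at -31 to -26. Ctla4 held the shorter IRF form at -166 to -158 (TTCAGTTTC as printed). Pdcd1lg2 held none of the motifs. Among 32851 promoters of the same length, the shorter IRF form was present in 7.13%, the GC box in 32.7%, the interferon-gamma activated site in 7.02%, the response element core in 2.98% and the DR5 element in 0.00913%. The Ctla4 window lies inside the annotated span of the gene and overlaps none of its exons. The match is to letters alone, and no binding was measured.

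Total counts per tumour lay between 14033046 and 37951183, with a median of 18548168. The first digit of the tumour names makes 8 series, of which each holds a single treatment, so that series and treatment cannot be told apart. PBS replicate 4, tretinoin replicate 3 and ICT replicates 3 and 7 stood apart from their groups in immune marker transcripts in an earlier analysis of these data. These 4 tumours held the highest level in all 24 combinations of the 8 genes with the PBS, tretinoin and ICT groups, and results that change without them are given both ways. Leaving them out takes the highest values from these groups, replicates 3 and 7 both from ICT, and no tumour from tretinoin+ICT. Values without them show how far a result rests on them, and the p-values without them are no independent support. The tumours were labelled mesothelioma, and the paper describes their pathology as sarcomatoid. Of 5 mesothelial genes listed, Msln was not analysed here. The other 4, Wt1, Upk3b, Lrrn4 and Krt19, together reached 0.327 to 6.21 CPM, with Upk3b and Lrrn4 at or near 0. In whole tumours, fewer cells of a type and less RNA per cell cannot be told apart.

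Levels are given as CPM, the counts scaled to TMM-adjusted library size, and between genes as CPM per kb of exon. In PBS tumours the order was Havcr2 (15.4 ± 2.08 CPM per kb, SD, n=10), Cd274 (13.0 ± 7.83), Icos (5.84 ± 1.55), Ctla4 (5.46 ± 1.56), Cd86 (4.87 ± 1.57), Lag3 (4.20 ± 1.26), Pdcd1 (2.64 ± 0.982) and Pdcd1lg2 (1.97 ± 1.48). Neighbours in this order differed by less than the larger of their SDs, except Lag3 and Pdcd1. After tretinoin Cd274 (30.7 ± 25.7, SD, n=9) came before Havcr2 (13.2 ± 2.59), and the other 6 genes lay between 2.95 and 7.82 CPM per kb. After ICT the order began with Cd274 (47.6 ± 38.2, SD, n=10), Havcr2 (21.99 ± 5.14) and Pdcd1lg2 (17.8 ± 18.8) and ended with Pdcd1 (4.16 ± 2.39) and Ctla4 (3.19 ± 1.24). In tretinoin+ICT tumours Cd274 was first (77.2 ± 37.7 CPM per kb, SD, n=10), and Pdcd1lg2 had moved from last to second place (31.6 ± 24.5). Havcr2 (19.3 ± 1.76) and Cd86 (13.5 ± 4.50) followed, and Lag3, Icos, Ctla4 and Pdcd1 lay between 3.67 and 4.95 CPM per kb, where neighbours differed by less than the larger of their SDs, as did Pdcd1lg2 and Havcr2. Across all 39 tumours, Pdcd1lg2 spanned 1.39 to 139 CPM (99.9-fold) and Cd274 18.6 to 522 CPM (28.0-fold), whereas Havcr2 spanned 3.38-fold.

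Cd274 and Pdcd1lg2, the genes of both PD-1 ligands, were upregulated against PBS after ICT and after tretinoin+ICT, and these treatments did not differ from each other in either gene over all tumours (edgeR adjusted p=0.35 and 0.404). Cd274 lay between 18.6 and 123 CPM in PBS tumours (median 41.5) and between 33.6 and 299 CPM after tretinoin (median 72.5). It reached 25.9 to 517 CPM after ICT (median 141) and 112 to 522 CPM after tretinoin+ICT (median 238). Of the tretinoin+ICT tumours, 9 of 10 were above every PBS tumour, of the ICT tumours 6 of 10, and of the tretinoin tumours 3 of 9. The log2 fold change of Cd274 against PBS was 1.25 (SE 0.44, adjusted p=0.0511) after tretinoin, 1.88 (SE 0.43, adjusted p=0.00688) after ICT and 2.58 (adjusted p=7.74e-06) after tretinoin+ICT by edgeR's quasi-likelihood test. Without the 4 tumours, the difference after tretinoin was 1.19 and passed (edgeR adjusted p=0.0308), as it did with DESeq2 (adjusted p=0.0226).

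Pdcd1lg2 lay in PBS tumours between 1.39 and 11.4 CPM (23 to 213 counts, median 3.73 CPM). It lay between 1.83 and 79.5 CPM after tretinoin (median 6.52), between 6.14 and 127 CPM after ICT (median 22.7) and between 18.4 and 139 CPM after tretinoin+ICT (median 35.4). Each of the 10 tretinoin+ICT tumours was above every PBS tumour, which held for 3.77% of all genes tested in this comparison. The log2 fold change against PBS was 2.01 (SE 0.64, adjusted p=0.0332) after tretinoin, 3.18 (SE 0.55, adjusted p=0.00133) after ICT and 4.02 (adjusted p=7.47e-06) after tretinoin+ICT in edgeR. The tretinoin group rested partly on replicate 3, at 79.5 CPM, where the next highest tumour was at 13.5 CPM. Without the 4 tumours the difference after tretinoin was 1.28 (edgeR adjusted p=0.0222), and with no filter on low counts it did not pass (1.99, edgeR adjusted p=0.0669). Between the pairs of name series the log2 difference ran from 0.18 to 2.26 after tretinoin, from 2.34 to 3.34 after ICT and from 3.38 to 4.22 after tretinoin+ICT.

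Cd86, the B7 ligand that was measured, followed the PD-1 ligands with smaller changes. It lay between 11.3 and 31.6 CPM in PBS tumours (median 17.1), 14.3 and 53.0 CPM after tretinoin (median 26.9), 18.1 and 79.5 CPM after ICT (median 29.7), and 30.4 and 75.0 CPM after tretinoin+ICT (median 44.1). The PBS median was exceeded in all 10 ICT tumours and all 10 tretinoin+ICT tumours. The log2 fold change against PBS was 1.07 (SE 0.25, edgeR adjusted p=0.00699) after ICT and 1.49 (edgeR adjusted p=9.59e-06) after tretinoin+ICT. After tretinoin it was 0.62 and did not pass (edgeR adjusted p=0.0553), but did with DESeq2 (adjusted p=0.0234) and without the 4 tumours (0.56, edgeR adjusted p=0.0198).

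**Figure D1:**
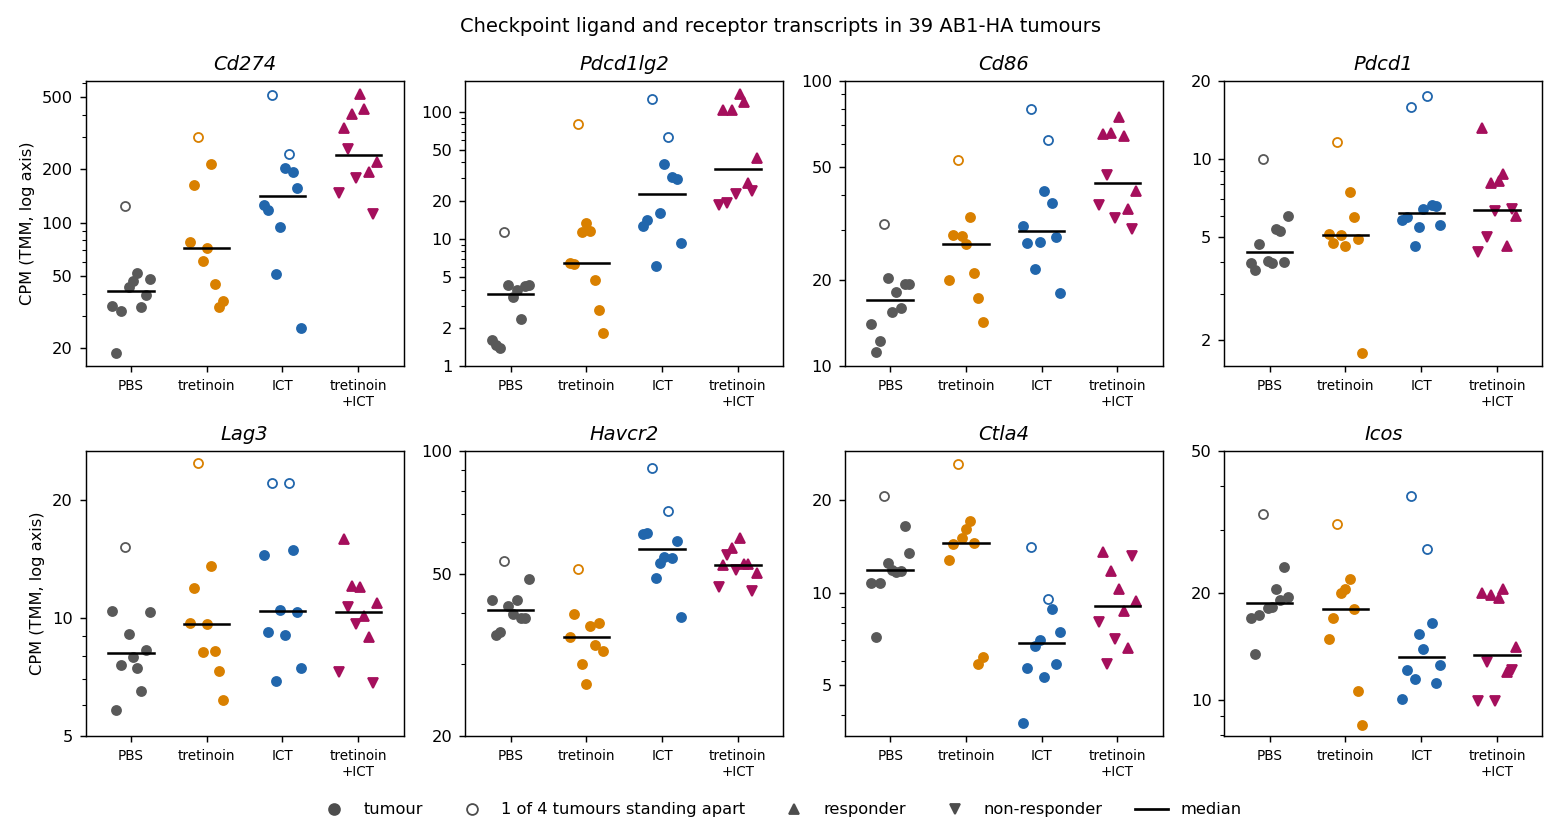
CPM on a log axis of the 8 genes in each of the 39 tumours by treatment; circles are tumours, open circles the 4 tumours standing apart, triangles responders and inverted triangles non-responders, and lines group medians. The medians of Cd274 rise from 41.5 CPM in PBS to 238 CPM in tretinoin+ICT tumours and those of Pdcd1lg2 from 3.73 to 35.4 CPM, while the median of Ctla4 is lowest in ICT tumours (6.86 CPM).

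Havcr2 was the only receptor gene that passed as higher after ICT in edgeR over all tumours. It lay between 35.4 and 53.8 CPM in PBS tumours (median 40.7), between 26.9 and 51.4 CPM after tretinoin (median 34.95), between 39.1 and 91.0 CPM after ICT (median 57.6) and between 45.3 and 61.1 CPM after tretinoin+ICT (median 52.7). Of the ICT tumours, 7 of 10 were above every PBS tumour, and no tretinoin tumour was. The log2 fold change was 0.52 (SE 0.11, edgeR adjusted p=0.00518) for ICT and 0.34 (edgeR adjusted p=0.000641) for tretinoin+ICT. After tretinoin alone it was -0.21 (edgeR adjusted p=0.148), with 5 of 9 tumours below every PBS tumour, and without the 4 tumours it was -0.25 and passed (edgeR adjusted p=0.0292).

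Pdcd1 and Lag3 did not pass in edgeR in any comparison over all tumours. Pdcd1, the PD-1 gene, was low in every group, with medians of 4.37 CPM after PBS, 5.08 after tretinoin, 6.18 after ICT and 6.34 after tretinoin+ICT, and 28 to 297 counts per tumour. No tumour of the ICT and tretinoin+ICT groups was below the PBS median. Its log2 fold change was 0.66 after ICT (edgeR adjusted p=0.0732) and 0.49 after tretinoin+ICT (edgeR adjusted p=0.0522), both called by DESeq2 (adjusted p=0.044 and 0.0456), and without the 4 tumours 0.37 (edgeR adjusted p=0.0241) and 0.65 (edgeR adjusted p=0.00504). Lag3, the gene of a receptor for MHC class II, had medians of 8.13, 9.67, 10.4 and 10.4 CPM after PBS, tretinoin, ICT and tretinoin+ICT. Its log2 fold change was 0.52 after ICT (edgeR adjusted p=0.0948) and 0.25 after tretinoin+ICT (edgeR adjusted p=0.207), the latter becoming 0.36 without the 4 tumours (edgeR adjusted p=0.04).

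Ctla4 was downregulated against PBS after ICT and after tretinoin+ICT. It lay between 7.19 and 20.6 CPM in PBS tumours (median 11.9), 5.86 and 26.3 CPM after tretinoin (median 14.5), 3.76 and 14.1 CPM after ICT (median 6.86), and 5.87 and 13.6 CPM after tretinoin+ICT (median 9.04). Of the ICT tumours, 6 of 10 were below every PBS tumour. The log2 fold change was -0.77 (SE 0.20, edgeR adjusted p=0.0115) after ICT, and -0.90 without the 4 tumours (edgeR adjusted p=0.000729). After tretinoin+ICT it was -0.42 (edgeR adjusted p=0.0483), and this call was lost without the 4 tumours (-0.32, edgeR adjusted p=0.105), in the fit of all 39 tumours (edgeR adjusted p=0.112) and with no filter on low counts (edgeR adjusted p=0.0736). Foxp3, the defining transcript of regulatory T cells, on which CTLA-4 is abundant, had a log2 fold change of -0.80 after ICT (SE 0.14, edgeR adjusted p=0.000867) and -0.79 after tretinoin+ICT (edgeR adjusted p=0.00052), and its part in the change of Ctla4 was not tested. Of 4 regulatory T cell markers, 1 was lower after ICT (7.15% of all genes), and after tretinoin+ICT 2 were lower (24.5% of all genes) and 1, Il2ra, higher (0.46, edgeR adjusted p=0.0475, where 25.7% of all genes were higher).

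Icos, the neighbour of Ctla4, lay between 13.4 and 33.2 CPM in PBS tumours (median 18.7) and between 10.1 and 37.5 CPM after ICT (median 13.3). Its log2 fold change was -0.25 after ICT (edgeR adjusted p=0.434) and -0.40 after tretinoin+ICT (edgeR adjusted p=0.0522). DESeq2 called the latter (adjusted p=0.0406). ICT replicates 3 and 7 were at 37.5 and 26.5 CPM and the other 8 ICT tumours at no more than 16.5 CPM, and without the 4 tumours the change after ICT was -0.52 and passed (edgeR adjusted p=0.00254). Removing replicates 3 and 7 lowers the ICT level by selection, so this p-value cannot show that Icos was lower after ICT.

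In all, 4 of the 8 genes were higher and 1 lower after ICT, where 14.1% of all genes tested were higher and 7.15% lower. After tretinoin+ICT 4 were higher and 1 lower, against 25.7% and 24.5% of all genes. After tretinoin alone 1 was higher and none lower, against 11.5% and 8.95%. Of the 8, 3 had an unadjusted p below 0.05 and 3 were called by DESeq2, counts for which the share of all genes was not worked out. With a log2 fold change of at least 1 required as well, 3 genes remained after ICT (2.35% of all genes in either direction), 3 after tretinoin+ICT (5.92%) and 1 after tretinoin (1.62%). Those 3 were Cd274, Pdcd1lg2 and Cd86 in both comparisons. The median log2 fold change of the 8 genes was 0.26 after tretinoin, 0.59 after ICT and 0.41 after tretinoin+ICT, and that of all genes tested was 0.01, -0.02 and -0.01. The comparisons share the PBS tumours and are not independent of each other.

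Whether tretinoin added to ICT was asked by setting tretinoin+ICT against ICT. None of the 8 genes passed in edgeR (adjusted p between 0.345 and 0.741), none had an unadjusted p below 0.05 and DESeq2 called none, where 1.57% of all genes were higher, 0.422% lower and 0.394% passed with a log2 fold change of at least 1. The log2 difference was 0.70 (SE 0.40) for Cd274, 0.83 (SE 0.54) for Pdcd1lg2 and 0.40 (SE 0.25) for Cd86, with 9, 7 and 10 of 10 tretinoin+ICT tumours above the ICT median. Without the 4 tumours 4 genes were higher after tretinoin+ICT, Cd274 by 1.21 (edgeR adjusted p=0.0377), Pdcd1lg2 by 1.66 (edgeR adjusted p=0.0374), Cd86 by 0.77 (edgeR adjusted p=0.0209) and Ctla4 by 0.58 (edgeR adjusted p=0.033). The result of this comparison thus depended on ICT replicates 3 and 7, the only tumours of its groups left out. They were the ICT tumours highest in these 4 genes (517 and 242 CPM for Cd274), and no tretinoin+ICT tumour was left out. Their removal lowers the ICT levels by selection, so these p-values cannot show that tretinoin added to ICT. The share of all genes passing without them was not worked out.

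Against tretinoin alone, tretinoin+ICT tumours had higher levels of 4 of the 8 genes and lower levels of none, where 12.3% of all genes were higher and 9.01% lower. These were Cd274 (1.33, edgeR adjusted p=0.0365), Pdcd1lg2 (2.01, edgeR adjusted p=0.0408), Cd86 (0.87, edgeR adjusted p=0.016) and Havcr2 (0.55, edgeR adjusted p=0.00124). Of these, Cd274 and Pdcd1lg2 also had a log2 fold change of at least 1, as did 2.08% of all genes. All 10 tretinoin+ICT tumours were above the tretinoin median for each of these 4 genes and below it for Ctla4 (-0.59, edgeR adjusted p=0.0734, DESeq2 adjusted p=0.0494). With no filter on low counts Cd274 and Pdcd1lg2 did not pass here (edgeR adjusted p=0.0746 and 0.0814), and without the 4 tumours Pdcd1lg2 differed by 3.09 (edgeR adjusted p=0.0011). The interaction, which tests whether the change with tretinoin differs with and without ICT, passed in none of the 8 genes (edgeR adjusted p between 0.565 and 0.993, none with an unadjusted p below 0.05, none called by DESeq2) and in 0.307% of all genes. Its standard error was 0.60 for Cd274 and 0.85 for Pdcd1lg2 on the log2 scale, and without the 4 tumours its values turned from -0.55 to 0.03 and from -1.18 to 0.37, neither passing.

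**Figure D2:**
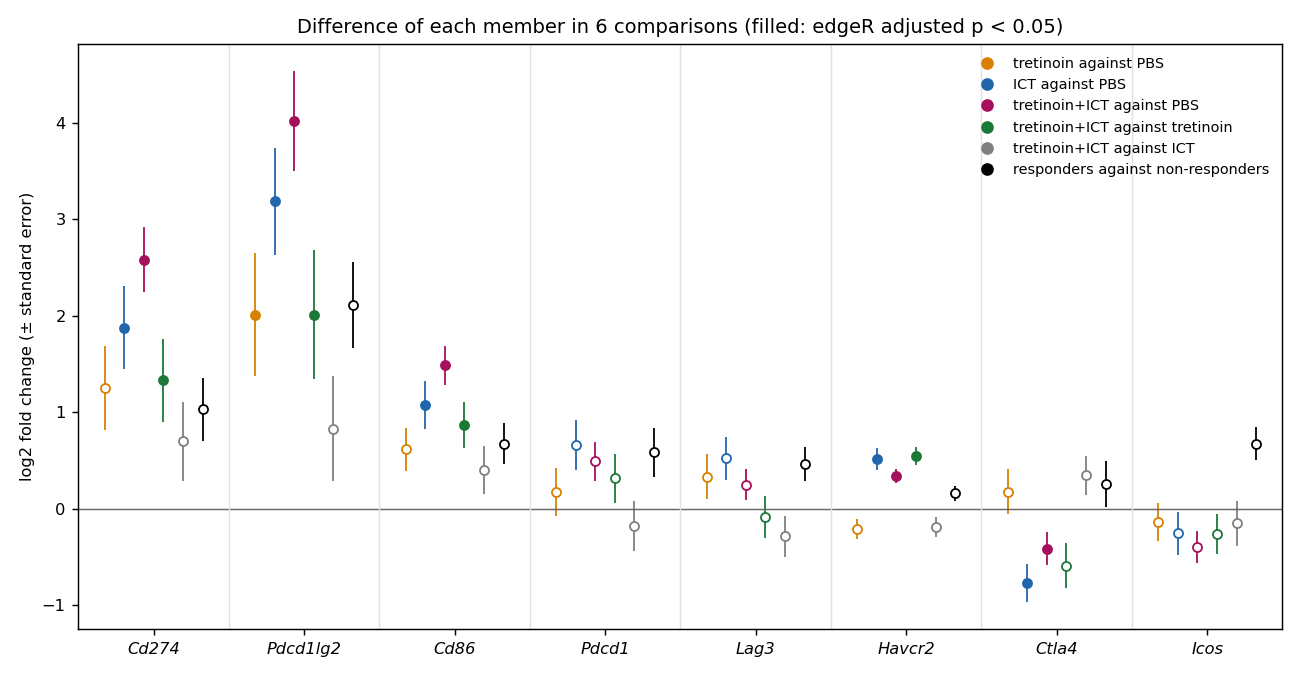
Log2 fold change with standard error of the 8 genes in 6 comparisons; filled points passed at an edgeR adjusted p below 0.05 and open points did not. Cd274, Pdcd1lg2 and Cd86 have the largest differences after tretinoin+ICT against PBS (2.58, 4.02 and 1.49), Ctla4 is below 0 after ICT (-0.77), and all 8 open points for responders against non-responders are above 0.

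Of 8 macrophage markers, 5 were higher than in PBS tumours after tretinoin (11.5% of all genes), 8 after ICT (14.1%) and 8 after tretinoin+ICT (25.7%). The summed level of 8 of 9 listed macrophage markers (none at 0) was 2398 to 3737 CPM in PBS tumours, 2624 to 5488 CPM after tretinoin, 2548 to 5567 CPM after ICT and 3590 to 5234 CPM after tretinoin+ICT, and that of 7 dendritic cell markers (none at 0) had medians of 103, 110, 142 and 186 CPM, with 1, 2 and 3 of the 7 higher in these comparisons. Of 4 neutrophil markers all were higher after ICT and after tretinoin+ICT, and none passed after tretinoin, where their median log2 fold change was -0.17. The part of these cells in the levels of the ligands was not tested. Set against the mean log2 CPM of the macrophage markers, Cd274 was higher than in PBS tumours after ICT (difference 0.9986, permutation test, adjusted p=0.0158) and after tretinoin+ICT (1.75, permutation test, adjusted p=4e-05). Pdcd1lg2 was higher by 2.21 (permutation test, adjusted p=0.00024) and 2.98 (permutation test, adjusted p=4e-05), and Cd86 by 0.35 (permutation test, adjusted p=0.0325) and 0.63 (permutation test, adjusted p=0.00018), the former not passing without the 4 tumours (0.25, exact permutation test, adjusted p=0.0694). Havcr2, in contrast, was lower relative to these markers after tretinoin+ICT (-0.49, permutation test, adjusted p=4e-05) but did not pass after ICT (-0.14, permutation test, adjusted p=0.0503), and it was lower after tretinoin (-0.58, exact permutation test, adjusted p=4.33e-05), with no tumour of either tretinoin group above the PBS median. Relative to these markers, Cd274, Pdcd1lg2 and Cd86 did not pass after tretinoin alone over all tumours (0.64, 0.97 and 0.21, exact permutation test, adjusted p=0.0992, 0.0992 and 0.121). These are ratios of transcripts in whole tumours and not levels per cell.

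T cell transcripts did not pass in the comparisons with PBS over all tumours. The summed level of 5 of 6 listed T cell markers (Cd3d, Cd3e, Cd3g, Cd2 and Cd6, none at 0) was 30.1 to 68.2 CPM in PBS tumours, 24.0 to 93.8 CPM after tretinoin, 26.1 to 107 CPM after ICT and 29.6 to 70.8 CPM after tretinoin+ICT, and none of the 5 passed in the comparisons with PBS in edgeR or in the permutation test of their mean (p=0.298, exact, p=0.676 and p=0.457). Without the 4 tumours, the markers averaged 2.57 ± 0.19 log2 CPM in 8 ICT tumours (SD) against 2.93 ± 0.21 in 9 PBS tumours. This mean thus changed by -0.36 with ICT (p=0.00296, exact permutation test), and it was higher by 0.57 after tretinoin+ICT than after ICT (exact permutation test, p=0.00482). The tumours left out had been chosen by immune marker transcripts. ICT replicates 3 and 7 were the ICT tumours highest in this mean (4.37 and 4.10 log2 CPM). Their removal lowers the ICT mean by selection, so these p-values cannot show a difference in T cell transcripts. Relative to these markers, all 5 receptor genes differed between ICT and PBS tumours. Pdcd1 was higher by 0.66 (permutation test, adjusted p=0.00015), with 10 of 10 ICT tumours above the PBS median, Lag3 by 0.56 (permutation test, adjusted p=0.00368, 9 of 10 tumours) and Havcr2 by 0.60 (permutation test, adjusted p=0.00674, 8 of 10 tumours). Ctla4 was lower (difference -0.69, permutation test, adjusted p=0.000575) as was Icos (-0.24, permutation test, adjusted p=0.00818), with 0 and 1 of 10 tumours above the PBS median. All 5 also passed without the 4 tumours, where Pdcd1 was higher by 0.73 and Lag3 by 0.67 (exact permutation test, adjusted p=0.000206 and 0.00201). Pdcd1 and Lag3 missed the threshold as levels. Over all tumours the mean of the T cell markers differed by -0.11 between ICT and PBS (permutation test, p=0.676), and its part in these ratios was not tested.

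Tretinoin+ICT differed from PBS and from ICT in some of these ratios. Icos was lower relative to T cell markers than in PBS tumours after tretinoin (-0.42, exact permutation test, adjusted p=0.000974) and after tretinoin+ICT (-0.56, permutation test, adjusted p=0.00015, 0 of 10 tumours above the PBS median). Pdcd1 was higher by 0.33 after tretinoin+ICT than after PBS (permutation test, adjusted p=0.0251) but lower than after ICT (-0.34, permutation test, adjusted p=0.0174), and Lag3 and Icos were also lower than after ICT (-0.44 and -0.31, permutation test, adjusted p=0.0116 for both). Ctla4 did not differ between tretinoin+ICT and ICT beyond the spread (0.14, permutation test, adjusted p=0.49). Against PBS it was lower after tretinoin+ICT (-0.56, permutation test, adjusted p=0.0067, 1 of 10 tumours above the PBS median). TIM-3 and LAG-3 are also made by cells other than T cells, so that these ratios do not follow T cells alone.

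**Figure D3:**
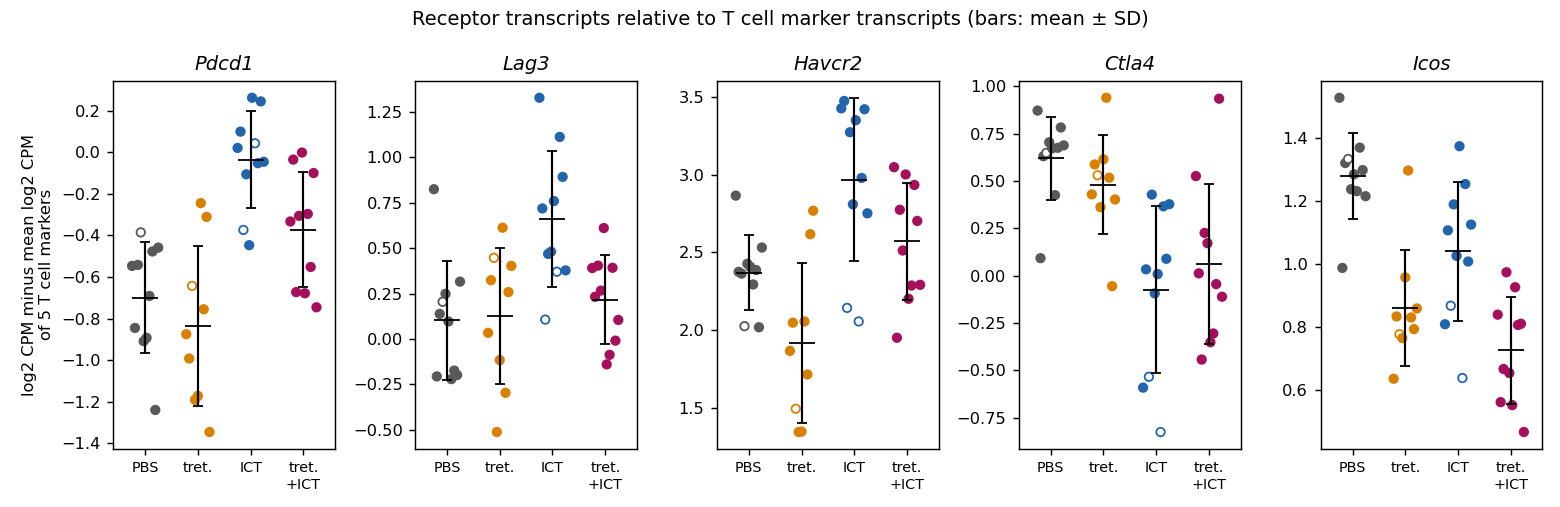
Log2 CPM of 5 receptor genes minus the mean log2 CPM of 5 T cell markers in each tumour, with group means ± SD; open circles are the 4 tumours standing apart. Pdcd1 is highest in ICT tumours (-0.04 ± 0.23), Ctla4 is lowest there (-0.07 ± 0.44), and Icos falls from 1.28 ± 0.14 in PBS to 0.72 ± 0.17 in tretinoin+ICT tumours.

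Responders and non-responders were compared within the tretinoin+ICT group. All 8 genes had a higher mean in responders, 6 of them at an unadjusted p below 0.05 (13.4% of all genes were higher at this threshold), but none passed adjustment in edgeR, as 0.0% of the 14604 genes tested did. DESeq2 called 4 of the 8 (Cd274, Pdcd1lg2, Cd86 and Icos) and 1367 of the 14314 genes with an adjusted p. Pdcd1lg2 differed most. It was at 18.4, 19.1, 22.6 and 23.9 CPM in the 4 non-responders and between 27.4 and 139 CPM in the 6 responders (median 104). The groups did not overlap, as was the case for 1.89% of all genes with the responders higher, and the log2 fold change was 2.11 (SE 0.44, edgeR p=0.000858 unadjusted, adjusted p=0.0841, DESeq2 adjusted p=0.000466).

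Cd274 was at 112, 147, 178 and 259 CPM in non-responders and between 192 and 522 CPM in responders (median 371), a log2 fold change of 1.03 (SE 0.33, edgeR adjusted p=0.11) with 4 of 6 responders above every non-responder. Cd86 was at 30.4, 33.0, 36.9 and 46.9 CPM in non-responders and between 35.6 and 75.0 CPM in responders (median 64.7), a log2 fold change of 0.68 (SE 0.22, edgeR adjusted p=0.11). Icos was at 9.95, 9.97, 12.1 and 12.8 CPM in non-responders and between 11.99 and 20.5 CPM in responders (median 19.6), a log2 fold change of 0.68 (SE 0.17, edgeR adjusted p=0.0862) with 5 of 6 responders above every non-responder. The smallest difference was that of Havcr2 (0.16, edgeR adjusted p=0.262), and Ctla4 differed by 0.26 (edgeR adjusted p=0.549), its highest non-responder being at 13.2 CPM.

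Replicate 8 was the responder with the lowest level of 7 of the 8 genes, Havcr2 excepted. When it was left out, Cd274, Pdcd1lg2, Cd86 and Icos passed in edgeR (adjusted p=0.0374, 0.00585, 0.0231 and 0.0102), and leaving out any other tumour gave no call. Replicate 8 was the lowest responder in these 4 genes, so its removal raises the responder levels by selection. The p-values without it thus cannot show that responders differed from non-responders. The share of all genes passing without replicate 8 was not worked out. Name series 2 held 2 responders and 3 non-responders, and series 4 held 4 and 1. Pdcd1lg2 differed by 2.37 within series 2 and by 1.47 within series 4, and Cd274 by 0.97 and 1.47, whereas Ctla4 differed by 0.86 and -0.61. With the series as a block, the log2 fold change of Pdcd1lg2 was 2.15 (edgeR adjusted p=0.121).

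Immune marker transcripts differed between responders and non-responders as well. The summed T cell markers were 35.1 to 70.8 CPM in responders and 29.6 to 42.7 CPM in non-responders, and their mean log2 CPM was higher by 0.66 (exact permutation test, p=0.0286). Macrophage markers were 4395 to 5234 CPM and 3590 to 4213 CPM, higher by 0.33 on the mean log2 scale (exact permutation test, p=0.00476, the smallest that 6 against 4 tumours can give). Relative to macrophage markers, Pdcd1lg2 was higher in responders by 1.54 (exact permutation test, adjusted p=0.0476) and Havcr2 lower (-0.20, exact permutation test, adjusted p=0.0476), whereas Cd274 and Cd86 did not pass (0.65 and 0.29, exact permutation test, adjusted p=0.0698 and 0.176). Relative to T cell markers none of the 5 receptors passed (exact permutation test, adjusted p between 0.143 and 0.79), and only Havcr2 had an unadjusted p below 0.05 (-0.52, exact permutation test, p=0.0286).

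Within a treatment, tumours that were high in one of these genes were mostly high in the others. Of 28 pairs, correlated over 39 tumours after log2 CPM had been centred on the treatment means, 27 had a positive r that passed (permutation test within groups, Benjamini-Hochberg over the 28 pairs), and 27 a positive rho. The share of pairs of other genes passing this test was not worked out, so the count is not shown to be particular to these genes. Some genes outside the set followed a member more closely, such as Serpina3g with Cd274 (r=0.991). Pdcd1lg2 and Cd86 gave r=0.931 and rho=0.919 (permutation test, p=1e-05 for both, the smallest that 100000 resamples can give, adjusted p=1.27e-05 and 1.87e-05), with r between 0.904 and 0.971 inside the 4 treatments. Cd274 and Cd86 gave r=0.915 and rho=0.905, and Cd274 and Pdcd1lg2 gave r=0.853 and rho=0.851, with the same p-values. Ctla4 and Icos gave r=0.8545 and rho=0.822 (permutation test, p=1e-05 for both). Without the 2 tumours farthest from the median of the first gene, r was 0.913, 0.898, 0.853 and 0.827 for these 4 pairs. The exception was Ctla4 with Havcr2 (r=0.349, permutation test, p=0.0526, and rho=0.200, p=0.242).

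The 4 tumours standing apart carried part of this. Over the other 35 tumours 22 pairs passed, and r was 0.894 for Pdcd1lg2 and Cd86, 0.871 for Cd274 and Cd86, 0.765 for Cd274 and Pdcd1lg2 and 0.785 for Ctla4 and Icos. The pairs no longer passing were Havcr2 with Pdcd1lg2 (r=0.299), Pdcd1 (r=0.304) and Icos (r=0.108), and Ctla4 with Cd274 (r=0.327) and Lag3 (r=0.366), so that these relations rest on those tumours. All points share the library of their tumour, and the part of immune cell number in these relations was not tested.

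**Figure D4:**
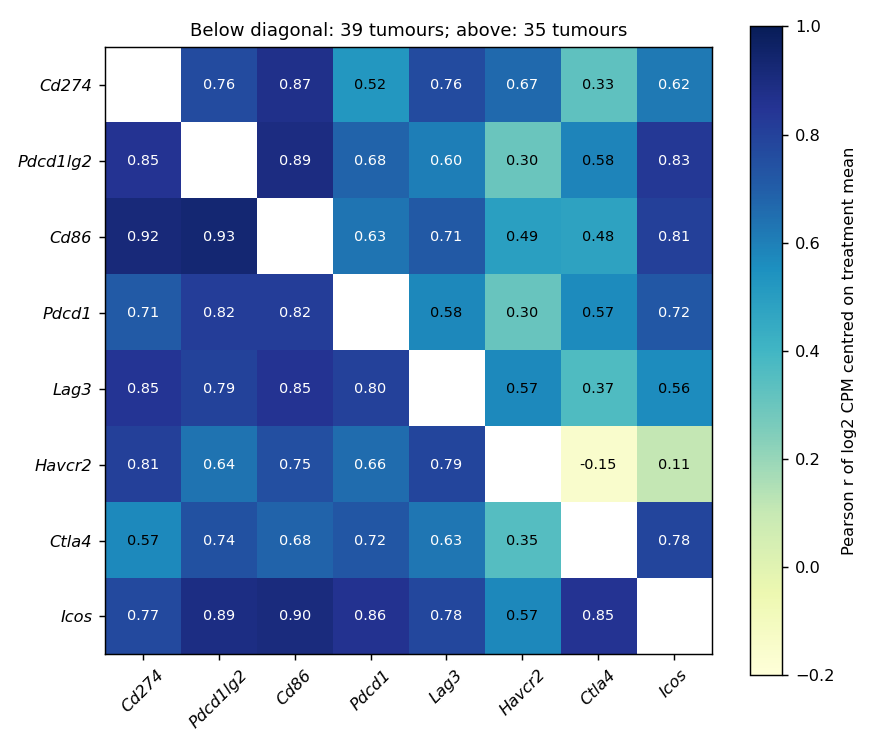
Pearson r of log2 CPM, centred on treatment means, for each pair of the 8 genes over 39 tumours (below the diagonal) and over 35 tumours without those standing apart (above). The ligands Cd274, Pdcd1lg2 and Cd86 keep r of 0.765 or more with each other in both, and the pair of Ctla4 and Havcr2 has the lowest r in both (0.349 and -0.153).

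Among the other 13344 genes passing the filter over all tumours with a mean log2 CPM of at least 0, those most like each gene within treatments are given by r over 39 tumours, as a description. For Cd274 they were Serpina3g (0.991), Gbp8 (0.987) and Hk3 (0.985), and for Pdcd1lg2 Cish (0.974), Tnfrsf9 (0.9535) and Hsd11b1 (0.953). For Cd86 they were Irf8 (0.972), Dnase1l3 (0.970) and Itgal (0.9665). For Pdcd1 they were Cd8a (0.889), Lck (0.879) and H2-Ea-ps (0.868), and for Lag3 Cd40 (0.879), Arhgap25 (0.877) and Itgal (0.877). For Ctla4 they were Tnfrsf4 (0.868), Il2ra (0.864) and Icos (0.8545), for Icos Cd28 (0.9525), Gimap3 (0.9435) and Lck (0.927), and for Havcr2 Abr (0.881), Plcg2 (0.870) and Ap3m2 (0.860).

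Of 12 genes listed for the route from interferon gamma to PD-L1 and for other targets of interferon gamma, 9 were tested. Of these, 3 were higher after tretinoin (11.5% of all genes), 7 after ICT (14.1%) and 9 after tretinoin+ICT (25.7%), and none was lower. After tretinoin+ICT they included Irf1, a transcription factor induced by interferon gamma (1.86, edgeR adjusted p=1.29e-06) and Gbp2, an interferon-induced GTPase (2.30, edgeR adjusted p=6.13e-06). Cmtm6, whose product keeps PD-L1 at the cell surface, was higher by 0.60 (edgeR adjusted p=1.01e-05). Neither Ifng itself nor Jak2 and Socs1 were analysed here. The list was chosen with earlier results of these tumours known.

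Genes listed as ligands of TIGIT, LAG-3 and TIM-3 or as related receptors had a median log2 fold change of 0.55 after tretinoin+ICT. Of the 7 tested, 3 were higher after ICT (14.1% of all genes) and 6 after tretinoin+ICT (25.7%), none lower. After tretinoin 3 were higher (11.5%) and 1, Pvr, lower (8.95% of all genes, Pvr at -0.22, edgeR adjusted p=0.0151). Those with the smallest adjusted p after tretinoin+ICT were Lgals9, a galectin that binds TIM-3 (0.51, edgeR adjusted p=1.48e-06), Nectin2, a ligand of TIGIT and CD226 (0.58, edgeR adjusted p=4.49e-06), and Lgals3, a galectin that binds LAG-3 (0.82, edgeR adjusted p=3.07e-05). Cd226, the activating counterpart of TIGIT, was higher by 1.39 (edgeR adjusted p=4.42e-05). Of 6 tested further genes listed with the B7 and CD28 families, not all of which belong to them, 3 were higher and 1 lower after tretinoin+ICT (25.7% and 24.5% of all genes). Among them were Vsir, which encodes VISTA (0.75, edgeR adjusted p=2.27e-05), Tnfrsf14, the partner of BTLA (1.14, edgeR adjusted p=3.67e-05), and Cd276, which encodes B7-H3 (-0.21, edgeR adjusted p=0.0399).

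In the CD47 and CD200 axis, by which cells restrain macrophages, all 4 genes were higher after tretinoin+ICT (25.7% of all genes), 3 after ICT (14.1%) and 1 after tretinoin (11.5%), Cd47 by 0.69 after tretinoin+ICT (edgeR adjusted p=1e-05). Of 6 tested TNF superfamily costimulation genes, 2 were higher and 1 lower both after ICT (14.1% and 7.15% of all genes) and after tretinoin+ICT (25.7% and 24.5%), the latter shares being near those of the list, and 2 were higher after tretinoin (11.5%). The lower one after ICT was Tnfsf18, the ligand of GITR (-0.98, edgeR adjusted p=0.0333). Cd40, which licenses antigen presenting cells, was higher by 1.66 after tretinoin+ICT (edgeR adjusted p=1.73e-05) and Tnfrsf9, the costimulator 4-1BB, by 1.35 (edgeR adjusted p=2.48e-05), whereas Cd27, a costimulatory receptor, was lower (-0.71, edgeR adjusted p=0.00244). Of 9 tested factors of T cell activation and exhaustion, 4 were higher after tretinoin (11.5% of all genes), 3 after ICT (14.1%) and 5 after tretinoin+ICT (25.7%), and Nr4a2 was lower after ICT and tretinoin+ICT (-0.36 and -0.32, edgeR adjusted p=0.0453 and 0.0475). Entpd1, the ectonucleotidase CD39 (1.15, edgeR adjusted p=4.66e-06), Tbx21, the T-bet gene (1.76, edgeR adjusted p=5.68e-06), Batf (1.15, edgeR adjusted p=1.74e-05) and Eomes (1.29, edgeR adjusted p=3.32e-05) had the smallest adjusted p of the list after tretinoin+ICT. None of the genes of these 6 lists passed between tretinoin+ICT and ICT or between responders and non-responders in edgeR. Of 3 tested NK cell markers, 0 were higher than in PBS tumours after tretinoin (11.5% of all genes), 2 after ICT (14.1%) and 3 after tretinoin+ICT (25.7%). None of the 5 T cell markers passed in these comparisons. The part of NK cells and of other cells in the levels of the activation and exhaustion factors was not tested.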

How the data were processed

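RNA of 39 whole AB1-HA tumours was sequenced as single-end reads. Per the labels and the methods of the study, the authors made the deposited gene counts with bcl2fastq 2.20.0.422, HISAT2 2.0.4 and SummariseOverlaps on a mouse genome they named mm11, and strand and multimapping settings are not given in the sources used here. Groups came from the labels, each sample being a separate tumour. Replicates were numbered in accession order.

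The counts as deposited were fitted with edgeR 4.0.16 (R 4.3.3, TMM scaling, filterByExpr, robust quasi-likelihood test) over the tumours of each comparison, or all 39 for the interaction, and p-values were adjusted by Benjamini-Hochberg over all genes tested (threshold 0.05). DESeq2 1.42.0 was an alternative. The fits were tested on simulated data. Log2 CPM used a prior count of 2. Differences relative to the mean of 5 T cell or 8 macrophage markers, and correlations, were tested by two-sided permutation and adjusted within a comparison or over the 28 pairs. The permutations were written with numpy 2.4.6 (100000 resamples, or for differences exact where a group held fewer than 10 tumours). Cd80 and Tigit were planned for but not analysed here. Of other lists, at most 4 genes with the smallest adjusted p per comparison were named, of which 1 is not reported here. The members, lists, tests and the 4 tumours left out were chosen with earlier results of these data known. Total counts of 14033046 to 37951183 per tumour set the counting error of each level, and the p-values rest on the spread between tumours.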

Additional observations from a re-analysis of the deposited data

Results flagged for a closer look

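Of 48 Dixon tests on log2 CPM, each for a tumour far from the rest of its group, 2 met the criterion, both for Pdcd1. Chance alone flags about 1 in 20 groups. Tumours far from their group on the CPM scale could go unflagged, such as tretinoin replicate 3 for Pdcd1lg2 (79.5 CPM, the next at 13.5 CPM). PBS replicate 4 had the highest level of its group at 10.0 CPM (10.023), where the next tumour was at 6.03 CPM. It is one of the 4 tumours standing apart. Tretinoin replicate 9 had the lowest level of its group at 1.77 CPM (1.768), from 28 counts, where the next tumour was at 4.60 CPM.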

How the results depend on the processing

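Between tretinoin and PBS, where 1 of the 8 genes passed, 3 passed with DESeq2, 0 with no filter on low counts, 2 with at least 10 counts required in every tumour and 4 without the 4 tumours standing apart. Requiring a log2 fold change of at least 1 as well left 3 of 5 genes for ICT and 3 of 5 for tretinoin+ICT against PBS, and 2 of 4 for tretinoin+ICT against tretinoin, where no filter on low counts also left 2. For tretinoin+ICT against ICT the count went from 0 to 4 without the 4 tumours, which took out the ICT tumours highest in those genes. For responders against non-responders the count went from 0 to 4 with DESeq2, and leaving out 1 tumour at a time gave 0 to 4. The 4 arose without replicate 8, the responder lowest in those genes. Apart from DESeq2 in this comparison (1367 of 14314 genes), shares of all genes passing were worked out for the main fits only. The counts under the other alternatives thus have no share to be set against. Relative to T cell markers, 2 genes in place of 1 passed between tretinoin and PBS on variance-stabilised values. Relative to macrophage markers, 4 in place of 1 passed between tretinoin+ICT and ICT without the 4 tumours. In all, 6 relative values passed newly and 2 no longer passed, both without the 4 tumours, Cd86 relative to macrophage markers between ICT and PBS (0.25, adjusted p=0.0694, exact permutation test) and Ctla4 relative to T cell markers between tretinoin+ICT and tretinoin (-0.41, adjusted p=0.0549, exact permutation test). Of the single-gene values under the alternatives run, 366 kept direction and side of the threshold, 28 passed newly and 6 no longer passed. No called value changed sign, whereas 9 values that had not passed did so without the 4 tumours. No paired analysis was possible because the labels give no numbers that tie tumours of different treatments. The cause of these changes was not tested. Depth limits Pdcd1 and Pdcd1lg2 most, with 28 and 23 counts in their lowest tumours.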
